A study of Takifugu alboplumbeus with 24 samples.

Results

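Collagen genes were examined in the brain of a pufferfish whose spawning follows the tide, the grass puffer Takifugu alboplumbeus, in males caught in the wild. The genes were chosen by name and level: the annotated symbol or product names a collagen alpha chain, and the mean over all libraries is at least 0.5 FPKM (fragments per kilobase of transcript, scaled to the mapped fragments of the library). Of 24935 annotated genes and transcripts, 78 carried a collagen name and 62 reached that mean. The gene just inside the limit was LOC105417050, a type XXVI chain, at 0.511 FPKM, and the gene just outside was LOC101068515, a type XXVIII chain, at 0.331 FPKM.

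The samples were 24 strand-specific poly-A RNA libraries, 3 from each of 8 weekly dates in 2020, made from tissue that held the ventral telencephalon, hypothalamus and pituitary and was taken at about 19 h Japan time. Spring tides were the new moons of May and June and the full moons of June and July, with 12 libraries over 4 dates. Neap tides were the waxing moons of May and June and the waning moons of June and July, also with 12 libraries over 4 dates. The males were untreated, came from a spawning site at Minamichita and were brought alive to the laboratory. Nothing in the labels ties a library to a single animal; each is called a fish below, and p-values measure the spread between libraries and between dates.

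Collagens are secreted or membrane-bound proteins whose alpha chains wind into a triple helix and give tissue its tensile strength. Fibrillar types build the fibrils of connective tissue, meninges and vessel walls, type IV forms the network of basement membranes, and the fibril-associated types (FACIT, fibril-associated collagens with interrupted triple helices) sit on the fibrils. In the mammalian brain most of them come from fibroblasts of the meninges and around vessels, from endothelial cells and from pericytes, while a few, such as type XXV in mice, are made by neurons.

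Gene names are those of RefSeq models of Takifugu rubripes, a related species. Of the 62 genes, 42 have only an LOC symbol and are given below with the chain named in their product, as in LOC101076114 (col1a1). They carry 34 chain names from 24 collagen types, and 16 chain names have more than 1 gene, so reads of close copies may be split between them. The orthology entry of 60 genes names a collagen. Doubt remains about the genes called type III: LOC105417179 (col3a1) has a best protein match to cortexin-3-like and an orthology entry shared by collagens, keratin and aggrecan, and LOC101070385 (col3a1) and LOC115247550 (col3a1) match BAG4, a co-chaperone. The protein matched by col23a1 is named as a type XXV chain, and that matched by LOC101066835 (col4a5) as an alpha-4 chain of type IV. The chain names of these genes are therefore those of the annotation alone.

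Summed over the 62 genes, collagen FPKM per fish ran from 284.7 to 390.9, with a median of 320.3. The date means were 316.7, 362.4, 325.1, 314.4, 316.6, 318.9, 337.2 and 296.5 in sampling order, so Waxing moon May stood highest and Waning moon July lowest. Without the 3 genes called type III, Full moon July stood highest (268.3 FPKM), above Waxing moon May (265.5 FPKM). Waning moon July stayed lowest (231.3 FPKM). The FPKM sum of all genes also differed between libraries, with a median of 485.2 and a highest value of 551.8 kFPKM. Scaled to the same sum in every library (TPM), the collagen total was highest at Waxing moon May (723.7) and Waxing moon June (721.9) and lowest at Full moon July (623.8), a date that ranked next to the highest in FPKM. No collagen gene read 0 in any library. By mean level, 7 genes were at 10 FPKM or more, 12 at 5 to 10, 24 at 1 to 5 and 19 below 1.

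**Figure D1:**
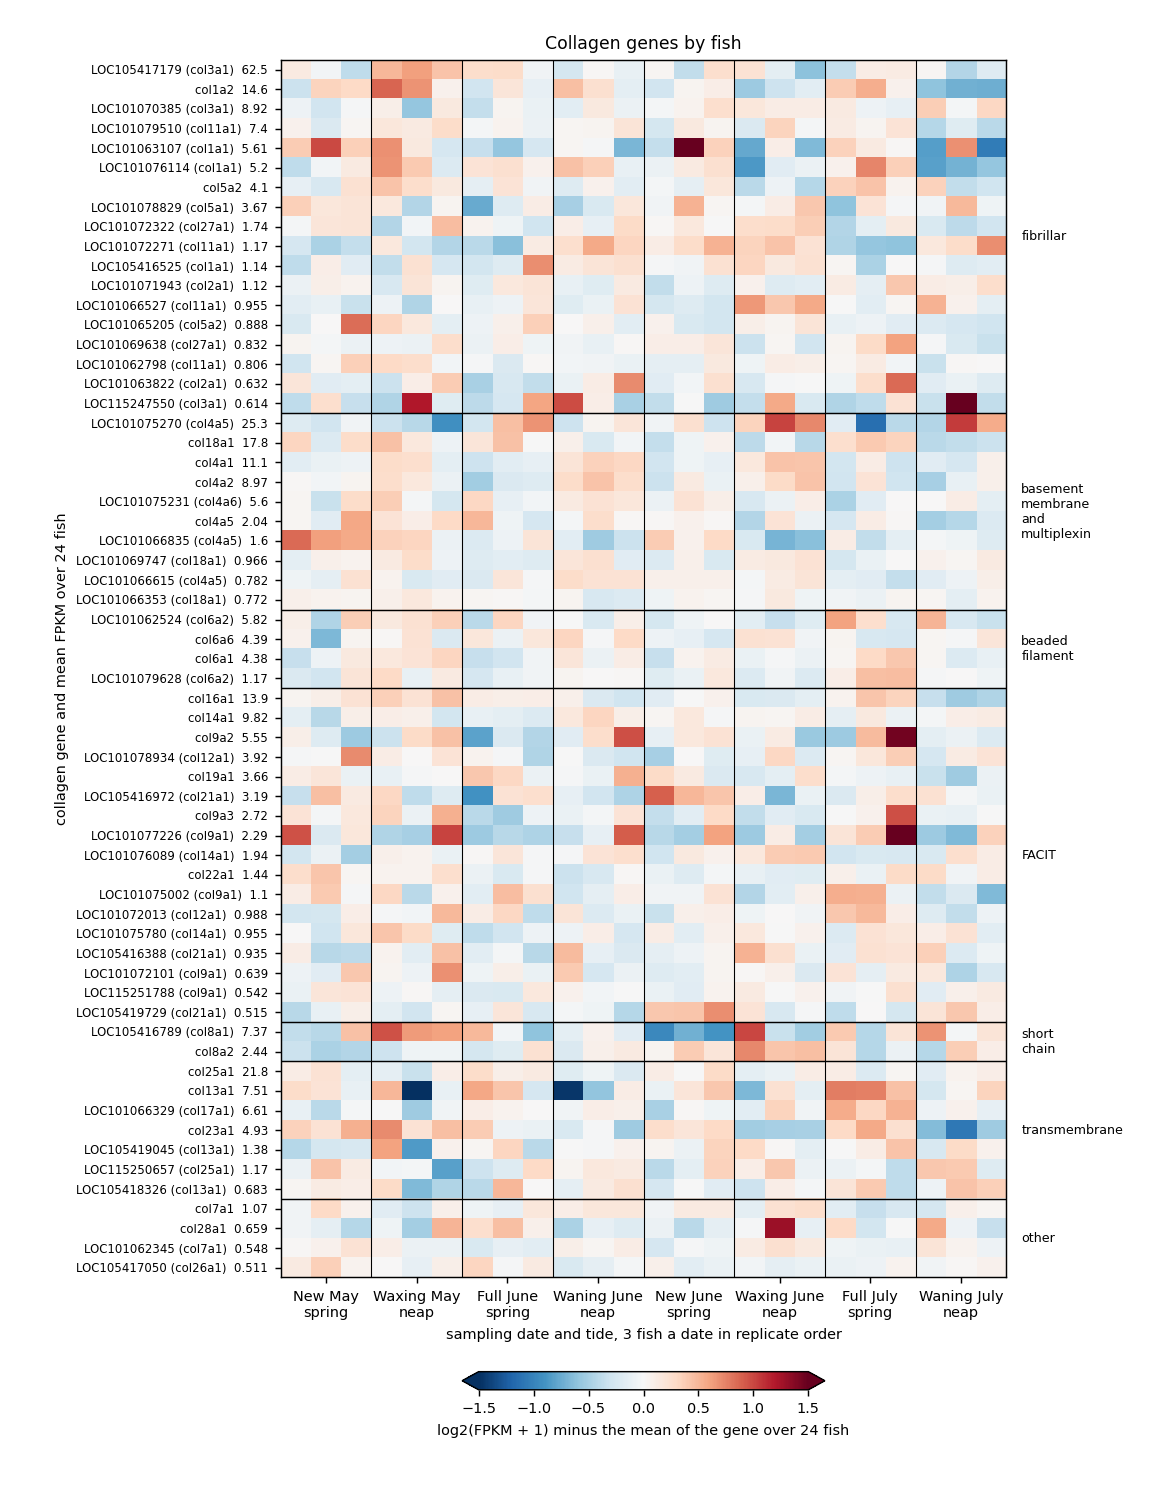
The 62 collagen genes (down the page, by class, with each mean FPKM beside its name) in 24 fish (across, by sampling date). Colour gives log2(FPKM + 1) minus the mean of the gene over the 24 fish. The fibrillar genes col1a2 and LOC101076114 (col1a1) are blue in all 3 fish of Waning moon July and red in fish 1 and 2 of Waxing moon May, and single fish stand out for the type IX and type XIII genes.

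The fibrillar class held 18 genes and 37.7% of the collagen FPKM. Its highest gene, LOC105417179 (col3a1), whose type III name is in doubt, ranged from 46.88 through 64.12 to 74.2 FPKM (lowest, median, highest) in spring fish and from 39.7 through 59.23 to 94.2 FPKM in neap fish. The next, col1a2, the alpha 2 chain of type I, the main fibril of skin, bone and meninges, ranged from 10.93 through 14.86 to 20.9 FPKM in spring fish and from 8.04 through 12.5 to 26.48 FPKM in neap fish. For both genes the neap fish enclosed the spring fish. The third gene above 8 FPKM, LOC101070385 (col3a1), ranged from 6.65 through 8.45 to 10.68 FPKM in spring fish and from 5.59 through 9.645 to 11.64 FPKM in neap fish. The alpha 1 partner of col1a2 was carried, by name, by 3 genes with means of 5.61, 5.2 and 1.14 FPKM. The orthology entry of the lowest, LOC105416525 (col1a1), names types V, XI, XXIV and XXVII. Those of LOC101063107 and LOC101076114 name type I. LOC101076114 (col1a1) kept a ratio of 0.247 to 0.521 to col1a2 in the 24 fish, while LOC101063107 (col1a1) ranged from 0.189 to 1.16 and was highest, at 16.66 FPKM, in New moon June fish 2. Type V, whose chains nucleate type I fibrils, was led by col5a2 (4.1 FPKM) and LOC101078829 (col5a1, 3.67 FPKM). Type XI, a minor chain of thin fibrils, was led by LOC101079510 (col11a1, 7.4 FPKM), and type II, the main collagen of cartilage, reached means of only 1.12 and 0.632 FPKM in its 2 genes.

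Basement membrane collagens, type IV and the proteoglycan-like type XVIII, held 10 genes and 23.2% of the collagen FPKM. LOC101075270 (col4a5), one of the tissue-restricted type IV chains in mammals, ranged from 10.23 through 20.68 to 38.12 FPKM in spring fish and from 11.98 through 25.46 to 49.82 FPKM in neap fish. The ubiquitous network chain col4a1 ranged from 8.63 through 9.85 to 11.94 FPKM in spring fish and from 9.04 through 12.98 to 15.02 FPKM in neap fish. Its partner col4a2 ranged from 5.84 through 7.87 to 10.32 FPKM in spring fish and from 5.93 through 10.36 to 12.24 FPKM in neap fish. Spring and neap fish overlapped for all these genes. For col18a1, the source of the fragment endostatin, spring fish ranged from 13.4 through 20.43 to 23.96 FPKM and neap fish from 12.79 through 15.57 to 24.04 FPKM.

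Transmembrane collagens, which span the plasma membrane and can be shed, held 7 genes and 13.6% of the collagen FPKM. The third highest collagen overall was col25a1, which in mice is made by neurons and is needed for motor innervation of muscle. It ranged from 18.59 through 23.39 to 26.53 FPKM in spring fish and from 16.91 through 19.84 to 23.43 FPKM in neap fish. It was also the steadiest of the 62 genes, with a coefficient of variation of 11.97% over the 24 fish. The class further held col13a1, a collagen of cell adhesions and the neuromuscular junction (mean 7.51 FPKM), LOC101066329 (col17a1), a hemidesmosome protein of epithelia (6.61 FPKM), and col23a1 (4.93 FPKM).

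FACIT collagens held 17 genes and 16.7% of the collagen FPKM. The leading gene, col16a1, which links fibrils to cells through integrins, ranged from 12.07 through 14.64 to 18.64 FPKM in spring fish and from 9.18 through 11.61 to 18.94 FPKM in neap fish. Next came col14a1, a regulator of fibril growth, with 7.05 through 9.025 to 10.98 FPKM in spring fish and 7.92 through 10.46 to 12.41 FPKM in neap fish. Types XII, XIX, XXI and XXII had leading genes between 1.44 and 3.92 FPKM. Type VI, the beaded filaments that tie cells to the matrix, was carried by col6a1, col6a6 and 2 col6a2 genes with means of 1.17 to 5.82 FPKM, together 4.87% of the total. The short-chain type VIII of vessel walls and the eye was carried by LOC105416789 (col8a1, 7.37 FPKM), whose orthology entry names type X, and col8a2 (2.44 FPKM), together 3.03%. Types VII, XXVI and XXVIII made up the last 0.861%.

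**Figure D2:**
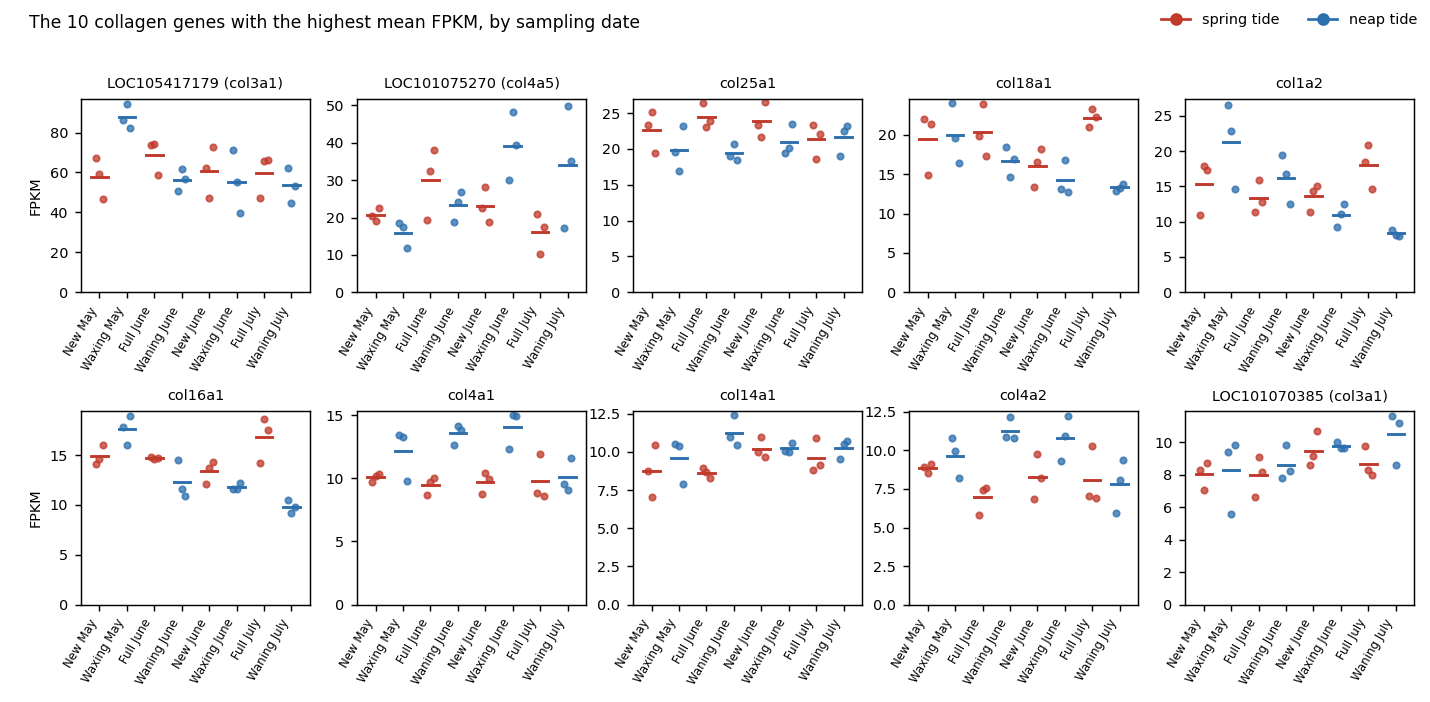
FPKM (vertical axes) of the 10 collagen genes with the highest means at the 8 sampling dates (horizontal axes, in order). Points are fish, bars are date means, and colour gives the tide; col16a1 and col1a2 have their lowest means at Waning moon July and their highest at Waxing moon May, whereas LOC101075270 (col4a5) is highest at Waxing moon June and col25a1 is nearly level.

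The cell types that make these collagens could not be read from bulk tissue, in which fewer cells of a type and less RNA per cell cannot be told apart. Of 14 markers of meningeal and other fibroblasts, 11 were found, as 26 genes. Decorin (LOC101063377) averaged 42.8 FPKM, foxc1 (LOC101072421) 13.5, pdgfra 7.37 and lum 6.66, while tcf21, a fibroblast factor, averaged 0.045 FPKM. Endothelial cldn5 averaged 40.5 FPKM and tagln of smooth muscle 242.5 FPKM. Markers of both connective tissue and vessel cells were thus detected, and the link of these collagens to the meninges rests on what is known of them elsewhere.

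The median spread between fish was wider for collagens than for all genes, in a comparison not matched for level. The coefficient of variation over 24 fish had a median of 27.3% in the 43 collagen genes with a mean of at least 1 FPKM and of 16.7% in all 17058 genes at that level. Of the 43 collagens, 24 averaged only 1 to 5 FPKM, so the wider spread cannot be read as particular to collagens. Over all 62 it reached 138%, in LOC115247550 (col3a1), which ran from 0.02 to 3.39 FPKM. Genes below 1 FPKM (19 collagens) were left out of the tests described next.

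The first question was whether collagen genes differ between spring and neap tides. No collagen gene passed the test among the 43 tested, where 5.63% of all tested genes did, 1.32% higher and 4.31% lower at spring tides (961 in all, limma with date as a random block, Benjamini-Hochberg adjustment over 17058 genes, threshold 0.05). At an unadjusted p below 0.05 there were 10 collagen genes, 23.3% of the 43 tested, beside 26.5% of all genes. The median log2 difference, spring minus neap, was 0.02 over the collagens, with 22 above 0 and 21 below, and -0.04 over all genes. With TPM scaling the median over all genes was -0.17 and that of the collagens -0.10, with 15 above 0 and 28 below. The 4 spring date means of a gene lay entirely to one side of the 4 neap date means in 3 collagen genes, 6.98% of those tested, and in 6.85% of all tested genes.

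The smallest tide p-values belonged to col23a1 and col4a1. In spring fish col23a1 ranged from 4.27 through 5.88 to 7.41 FPKM, and in neap fish from 1.7 through 3.02 to 8.25 FPKM. The 3 later neap dates lay below every spring fish on their means, but Waxing moon May, at 6.87 ± 1.33 FPKM (SD, n = 3), was the highest date of all. Its log2 difference was 0.53 (SE 0.16, limma adjusted p = 0.0505). This call depended on settings: in 5 of 10 other settings the adjusted p was below 0.05, from 0.0485 to 0.312 over the 10, and leaving out a library or a date gave 0.0011 to 0.546.

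For col4a1, spring date means averaged 9.77 ± 0.26 FPKM and neap date means 12.5 ± 1.79 FPKM (SD, n = 4 dates each). All 4 spring means, 9.45 to 10.08, lay below all 4 neap means, 10.09 to 14.1, the nearest by a margin in the second decimal. The log2 difference was -0.31 (SE 0.10, limma adjusted p = 0.0516), and it passed in 2 of 10 other settings, with adjusted p from 0.0217 to 0.284. Its partner col4a2 averaged 8.04 ± 0.80 FPKM at spring dates and 9.89 ± 1.56 FPKM at neap dates, a log2 difference of -0.26 (SE 0.12, limma adjusted p = 0.166). Endothelial markers, which belong to cells that lie on such membranes, summed to 168.0 to 176.7 FPKM at spring dates and 193.8 to 217.3 FPKM at neap dates, without overlap. Much of that gap lay in cldn5. The sums averaged 172.5 FPKM at spring and 201.3 FPKM at neap dates, and cldn5 alone 28.86 and 52.22 FPKM. Another cldn5 gene, cldn5b, had date means that overlapped between the tides. Of 12 endothelial genes tested, cldn5 fell by 0.85 on the log2 scale and tie1 by 0.40, and pecam1 (LOC101069042) rose by 0.32 (limma adjusted p = 0.000914, 0.0225 and 0.0297). The part of these cells in the type IV values was not tested.

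Next in order came LOC101072271 (col11a1) and LOC101066835 (col4a5). LOC101072271 had 0.35 through 0.6 to 1.98 FPKM in spring fish and 0.54 through 1.51 to 2.38 FPKM in neap fish, a log2 difference of -0.45 (SE 0.15, limma adjusted p = 0.0753). The New moon June fish, with 1.26, 1.53 and 1.98 FPKM, and Full moon June fish 3, with 1.27 FPKM, stood above the other spring fish. LOC101066835 had 0.94 through 1.785 to 3.53 FPKM in spring fish and 0.55 through 1.22 to 2.18 FPKM in neap fish, a log2 difference of 0.38 (SE 0.14, limma adjusted p = 0.0971). Here New moon May held the highest fish, with 3.53, 2.84 and 2.72 FPKM. Waxing moon May weighed on all these values: without that date 6 collagens passed by limma, col23a1, LOC101066835 (col4a5), col18a1 and col16a1 higher at spring tides and col4a1 and LOC101072271 (col11a1) lower. These were 14% of the collagens tested, beside 24.2% of all genes in the same fit. Leaving out single libraries gave 0 to 3 collagens. The 3, or 6.98%, came without Waxing moon May fish 3, beside 8.04% of all genes, and without Full moon June fish 3, beside 10.7% of all genes, and leaving out other single dates gave at most 1.

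**Figure D3:**
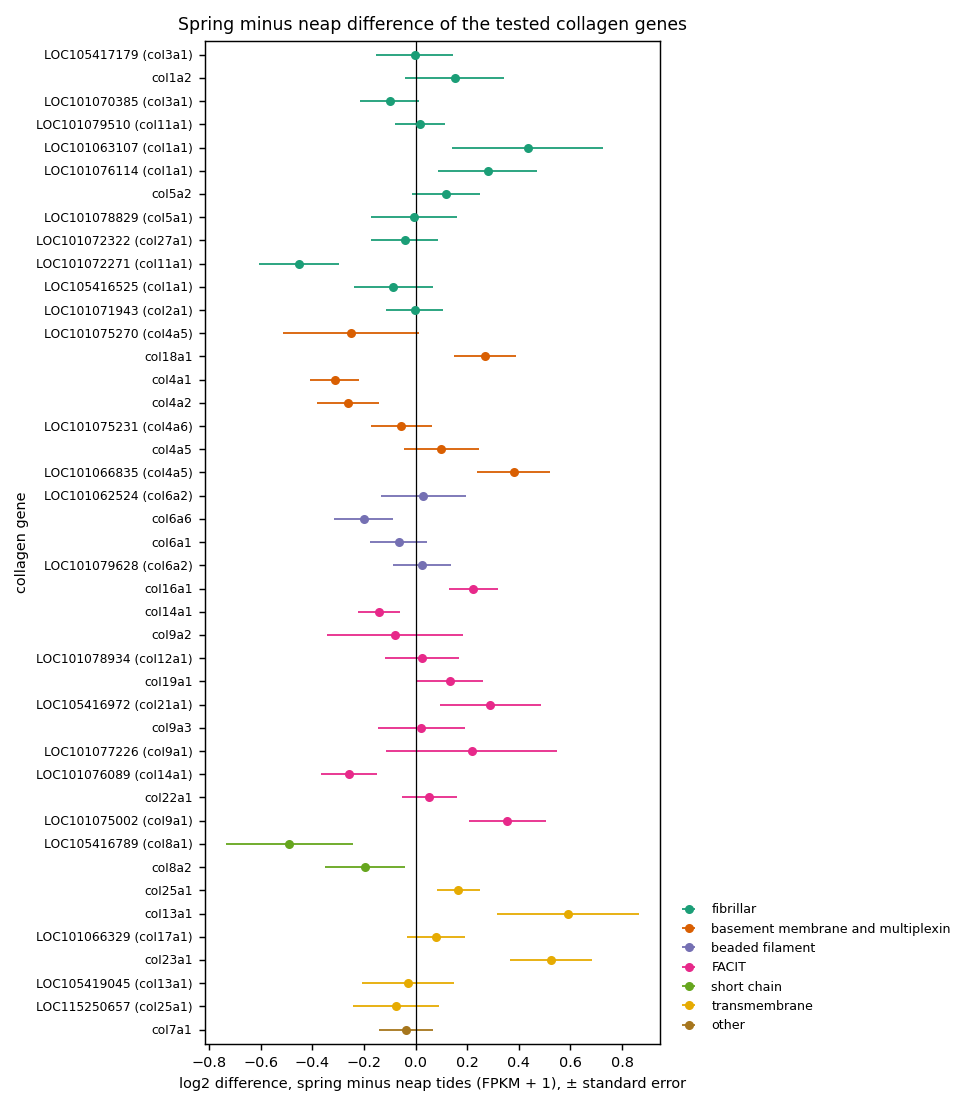
Log2 difference, spring minus neap (horizontal axis, log2 of FPKM + 1, bars ± standard error), of the 43 tested collagen genes (down the page, by class and mean level). The largest positive differences are those of col13a1 and col23a1 and the most negative those of LOC105416789 (col8a1) and LOC101072271 (col11a1); none passed the adjusted threshold.

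By class, the median log2 tide difference was -0.0036 for 12 fibrillar genes, -0.05 for 7 of basement membranes, -0.02 for 4 of type VI, 0.05 for 11 FACIT genes, -0.34 for the 2 type VIII genes and 0.12 for 6 transmembrane genes. The summed transmembrane genes reached 45.4 to 52.0 FPKM at spring dates and 37.9 to 41.4 FPKM at neap dates, without overlap. The lowest fish, at 29.9 FPKM, was Waxing moon May fish 2. Without it the mean of that neap date would lie within the spring range. The date sums were not scaled to the same library sum (TPM). The FPKM sum of all genes averaged 482.3 to 541.2 kFPKM at spring dates and 441.8 to 500.6 kFPKM at neap dates. New moon May, the lowest spring date, had 45.4 FPKM of transmembrane collagens beside 499.1 kFPKM. The neap date Waxing moon June had 40.34 FPKM beside 441.8 kFPKM. In proportion to these library sums both dates were nearly equal, so the lack of overlap is shown only for unscaled FPKM with all fish kept. Single genes without overlap were 6.85% of all tested genes. Of the 6 tested transmembrane genes, 4 had a positive and 2 a negative difference. The sums of every other class overlapped between tides. The highest transmembrane genes were col25a1 and col13a1. Date means of col25a1 averaged 23.1 ± 1.35 FPKM at spring dates and 20.5 ± 1.02 FPKM at neap dates, with overlap and a log2 difference of 0.17 (SE 0.08, limma adjusted p = 0.207). Those of col13a1 averaged 8.99 ± 1.76 FPKM at spring dates and 6.03 ± 1.1 FPKM at neap dates, without overlap, a log2 difference of 0.59 (SE 0.28, limma adjusted p = 0.173). That lack of overlap depends on Waxing moon May fish 2. The fish of that date had 10.19, 1.8 and 6.37 FPKM of col13a1, and without fish 2 their mean would lie above the lowest spring date.

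Pituitary transcripts also differed between the tides. A score over 7 pituitary genes (mean log2 of FPKM + 1) was 10.7 ± 0.40 at spring dates and 9.04 ± 0.42 at neap dates (SD, n = 4 dates each). With that score in the model the log2 difference of col13a1 was 0.05 (SE 0.21, limma adjusted p = 0.915). In the same fit it was 0.46 for col23a1, -0.30 for col4a1, 0.45 for LOC101066835 (col4a5) and -0.47 for LOC101072271 (col11a1). None of these passed. Because the score differed between the tides, such a fit cannot separate it well from the tide. The lowest score, 4.62 against 8.5 in the next fish, belonged to Waxing moon May fish 2, and this fish held the lowest value of all 3 type XIII genes: 1.8 FPKM for col13a1, 0.3 for LOC105419045 and 0.04 for LOC105418326. Their medians over the 24 fish were 7.78, 1.38 and 0.665 FPKM. Waxing moon May fish 2 held the lowest value of 8 of the 62 collagen genes, the 3 of type XIII included. New moon May fish 2 and Full moon June fish 1 came next, with 6 genes each. The 8 also included col25a1 and LOC101066329 (col17a1), so the low values were not confined to type XIII. Such counts were not taken over all genes. The next lowest col13a1 value, 1.9 FPKM, was in Waning moon June fish 1, whose score of 9.02 lay among those of the other neap fish. These observations on type XIII were made after the values had been seen, and the part of the pituitary share in them was not tested.

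Between the 2 kinds of spring tide, new and full moon, no collagen gene passed, and 3 of all genes did (0.0176%). LOC101066329 (col17a1) had the smallest p, with 5.95, 4.67, 6.35, 4.36, 6.58 and 6.18 FPKM at new moons and 7.01, 6.77, 6.52, 10.04, 8.28 and 9.79 FPKM at full moons, a log2 difference of -0.44 (SE 0.16, limma adjusted p = 0.296). New and full moon fish of this gene overlapped only narrowly, and the Full moon July fish were the 3 highest. LOC101066835 (col4a5) was higher at new moon by 0.55 (SE 0.20, limma adjusted p = 0.297), with 1.63 to 3.53 FPKM at new moons and 0.94 to 1.87 FPKM at full moons. LOC101072271 (col11a1) differed by 0.39 and col18a1 by -0.26 on the log2 scale, with limma adjusted p of 0.483 and 0.554.

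Between the 2 kinds of neap tide, waxing and waning moon, no gene of any kind passed (0.0% of genes by limma). An unadjusted p below 0.05 was found in 2 of the 43 collagens, beside 486 of 17058 genes (2.85%). These were col16a1 and col23a1. For col16a1, waxing moon fish had 17.79, 16.03, 18.94, 11.57, 11.59 and 12.23 FPKM and waning moon fish 14.47, 11.62, 10.94, 10.53, 9.18 and 9.76 FPKM, a log2 difference of 0.36 (SE 0.13, limma adjusted p = 0.997). For col23a1 the log2 difference was 0.48 (SE 0.22), with the same limma adjusted p of 0.997. In both genes the 3 Waxing moon May fish were above all waning moon fish and the Waxing moon June fish were not. On the negative side, LOC101072271 (col11a1) differed by -0.31 and LOC115250657 (col25a1) by -0.24.

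No gene passed the test for a steady change from May to July at a given tide (0.0% of genes by limma; 5 of the 43 collagens, and 8.48% of all genes, had an unadjusted p below 0.05). Per weekly date, the log2 slope was -0.09 for col23a1 and -0.08 for LOC101066835 (col4a5), and 0.05 for LOC101066329 (col17a1) and 0.04 for LOC101070385 (col3a1). The limma adjusted p of these 4 slopes ran from 0.456 to 0.655.

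The tide difference was also compared between the 2 lunar cycles, and no gene passed (0.0%, limma). At an unadjusted p below 0.05 there were 6 of the 43 collagens, beside 607 of 17058 genes (3.56%), a larger share of the collagens. In the second cycle col1a2 had spring date means of 13.57 and 18.02 FPKM against neap date means of 10.9 and 8.33 FPKM, and in the first cycle spring date means of 15.4 and 13.3 FPKM against neap date means of 21.3 and 16.2 FPKM. Spring lay above neap in the second cycle and below it in the first, a difference of 1.00 between the cycles' log2 tide differences (SE 0.31, limma adjusted p = 0.993). LOC101076114 (col1a1) gave the same value, 1.00 (SE 0.33, limma adjusted p = 0.993). LOC101075270 (col4a5) went the other way, with spring date means of 23.1 and 16.2 FPKM against neap date means of 39.3 and 34.0 FPKM in the second cycle, and 20.71 and 29.96 FPKM against 16 and 23.23 FPKM in the first. Its difference was -1.19 (SE 0.47), and that of LOC115250657 (col25a1) was -0.42 (SE 0.34), both with a limma adjusted p of 0.993.

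The sampling dates were then compared with each other, whatever their tide. Among the 8 dates, 15 of the 43 collagens passed (34.9%; limma F test without a block, threshold 0.05), beside 41.3% of all tested genes, and 19 collagens and 52.6% of all genes had an unadjusted p below 0.05, so collagens were called at close to the background share. They were 5 of 7 basement membrane genes, 4 of 12 fibrillar, 2 of 11 FACIT, both type VIII genes, 2 of 6 transmembrane genes and none of type VI or type VII. Without the 9 libraries in which rhodopsin exceeded 1 FPKM, a choice made after seeing the data, 15 libraries remained, and 1 collagen, col1a2, and 0.516% of all genes passed. Of all 62 genes, 16 had their highest date mean at Full moon July and 11 each at Waxing moon May and Waxing moon June, while 15 had their lowest at Waning moon July and 14 at Full moon June. The same counts were not taken over all genes, so these cannot be read as particular to collagens. Full moon July also had the highest library FPKM sum of the 8 dates (541.2 kFPKM).

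The genes col1a2, LOC101076114 (col1a1), col16a1, col18a1 and col23a1 had their lowest date mean at Waning moon July. The other genes named as type I chains did not and did not pass: LOC101063107 (col1a1) was lowest at Waxing moon June and LOC105416525 (col1a1) at New moon May. At Waning moon July col1a2 had 8.83, 8.11 and 8.04 FPKM and at Waxing moon May 26.48, 22.81 and 14.62 FPKM, with no overlap and a range of date means of 1.22 on the log2 scale (limma adjusted p = 0.00335). LOC101076114 (col1a1) had 2.38, 2.65 and 2.98 FPKM at Waning moon July and 5.25, 8.88 and 6.64 FPKM at Full moon July, its highest date (range 1.09, limma adjusted p = 0.00823). For col16a1 the Waning moon July fish had 10.53, 9.18 and 9.76 FPKM and the Waxing moon May fish 17.79, 16.03 and 18.94 FPKM (range 0.78, limma adjusted p = 0.000222). In col1a2, LOC101076114 and col16a1 the Waning moon July fish lay below all fish of their highest date.

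The smallest p of any collagen was that of col23a1 (range 1.21, limma adjusted p = 0.000111), with date means of 2.41 ± 0.64 FPKM at Waning moon July and 6.87 ± 1.33 FPKM at Waxing moon May (SD, n = 3 each). For col18a1 the means were 13.3 ± 0.43 FPKM at Waning moon July and 22.2 ± 1.16 FPKM at Full moon July (range 0.69, limma adjusted p = 0.0101). LOC101079510 (col11a1) was also lowest at Waning moon July, at 5.59 ± 0.64 FPKM, and highest at Waxing moon May, at 8.54 ± 0.52 FPKM (range 0.54, limma adjusted p = 0.0441). The summed fibroblast markers were lowest at Waning moon July (211.5 FPKM) and highest at Waxing moon May (281.0 FPKM). That low rests on the transporter slc6a13, whose 13 genes summed to 76.8 FPKM at Waning moon July and 143.8 FPKM at Waxing moon May. Without slc6a13 the sum was 134.7 FPKM at Waning moon July and 137.2 FPKM at Waxing moon May, and it was lowest at New moon June (100.3 FPKM). Of 17 tested markers 3 were lowest at Waning moon July, and dcn, lum, pdgfra, both foxc1 genes and osr1 were each lowest at a spring date. Whether the number of fibroblasts in the tissue piece had a part in the type I values was not tested.

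LOC101075270 (col4a5) had another order of dates. It was highest at Waxing moon June, with 29.96, 48.31 and 39.48 FPKM, and at Waning moon July, with 17.1, 49.82 and 35.19 FPKM. It was lowest at Waxing moon May, with 18.65, 17.36 and 11.98 FPKM, and at Full moon July, with 20.84, 10.23 and 17.59 FPKM (range 1.25, limma adjusted p = 0.0268). At Waning moon July its 3 fish were spread over a wider span than at any other date. Another type IV gene, LOC101066835 (col4a5), was lowest at Waxing moon June, at 0.77 ± 0.32 FPKM, and highest at New moon May, at 3.03 ± 0.44 FPKM (SD, n = 3 each; range 1.197, limma adjusted p = 0.00065).

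The common type IV chains col4a1 and col4a2 were both lowest at Full moon June. For col4a1 the date means were highest at Waxing moon June, 14.1 ± 1.56 FPKM, and Waning moon June, 13.6 ± 0.78 FPKM, and lowest at Full moon June, 9.45 ± 0.71 FPKM (range 0.53, limma adjusted p = 0.00611). For col4a2 they were 11.3 ± 0.80 FPKM at Waning moon June and 6.95 ± 0.96 FPKM at Full moon June (range 0.63, limma adjusted p = 0.0278). Scaled to the same library sum (TPM), 12 of the 15 genes kept their highest date and 12 their lowest, and the highest date of LOC101076114 (col1a1) and of LOC101079510 (col11a1) became Waning moon June. The remaining calls were LOC105416789 (col8a1, range 1.59), LOC101072271 (col11a1, 0.93), col8a2 (0.94), LOC101066329 (col17a1, 0.66) and LOC101076089 (col14a1, 0.60), with limma adjusted p from 0.00151 to 0.0369. LOC105416789 was lowest at New moon June, with 3.29 ± 0.38 FPKM, and highest at Waxing moon May, with 11.97 ± 1.78 FPKM, without overlap.

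**Figure D4:**
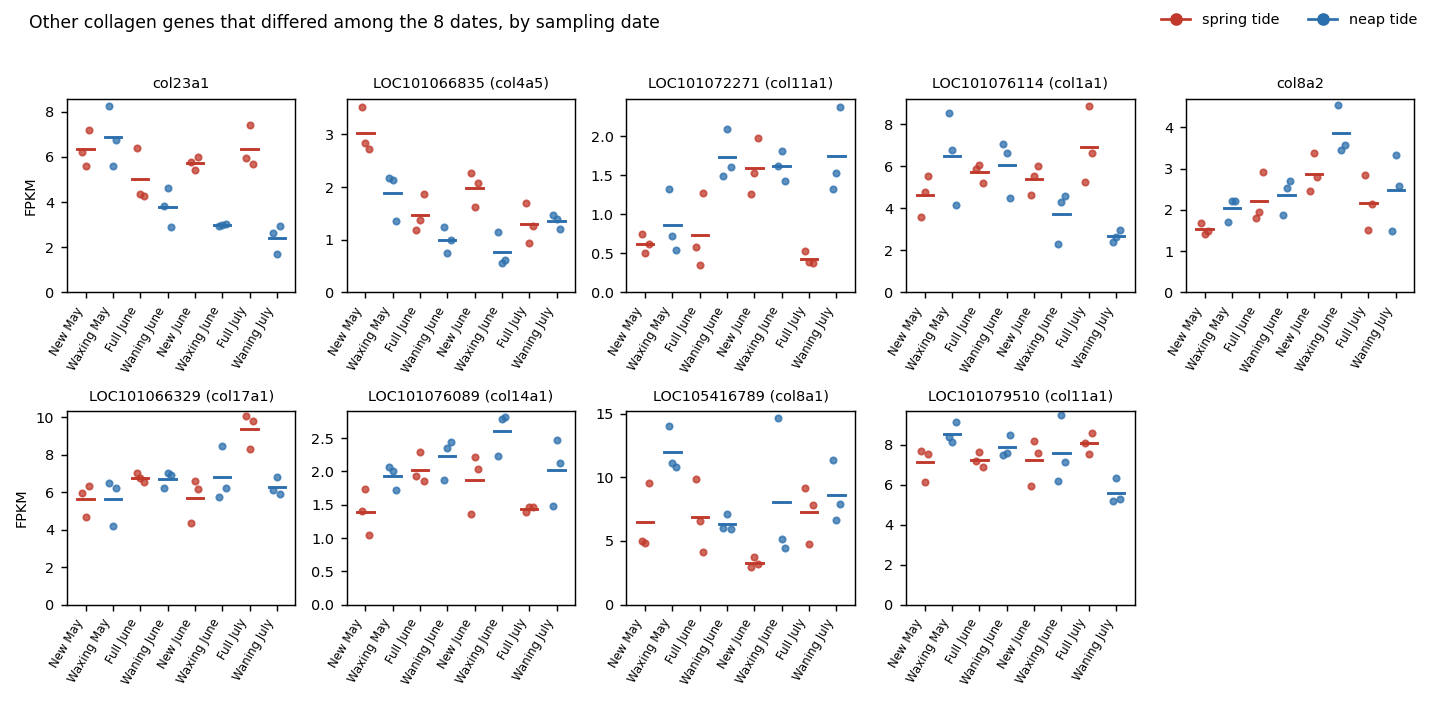
FPKM (vertical axes) at the 8 sampling dates (horizontal axes, in order) of the other 9 collagen genes that passed the test among dates; points are fish, bars are date means and colour gives the tide. LOC101066329 (col17a1) stands high at Full moon July only, col8a2 peaks at Waxing moon June, and LOC101066835 (col4a5) is highest at New moon May.

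Chains that assemble into a shared molecule were compared over the 8 date means, 4 pairs in all, as correlations with exact two-sided permutation tests. Only col4a1 and col4a2 were correlated after adjustment, with Pearson's r = 0.937 (exact permutation p = 0.000719, adjusted p = 0.00288) and Spearman's rho = 0.905 (exact permutation p = 0.00456, adjusted p = 0.0183). Without Waning moon June and Waxing moon June, the dates farthest from the median, r was 0.817. For col6a1 and LOC101062524 (col6a2) r was 0.746 (exact permutation p = 0.0368, adjusted p = 0.0735), rho was 0.333 (exact permutation p = 0.428, the adjusted value being the same), and r was -0.131 without Waxing moon May and Full moon July, so the relation rests on those dates. For LOC101063107 (col1a1) and col1a2 r was 0.538 (exact permutation p = 0.174, adjusted p = 0.232) and rho 0.619 (exact permutation p = 0.115, adjusted p = 0.23), with r = 0.855 without New moon May and New moon June. For LOC101078829 (col5a1) and col5a2 r was -0.432 (exact permutation p = 0.281, the same adjusted) and rho -0.333 (exact permutation p = 0.428, the same adjusted), with r = -0.559 without New moon May and Full moon June. The gene of each chain with the highest mean was used, and the dates share the libraries' scaling. For LOC101076114 (col1a1), at a mean of 5.2 FPKM beside 5.61 for LOC101063107, no correlation with col1a2 was therefore computed. The ratio of LOC101076114 to col1a2 ran from 0.247 to 0.521 in the 24 fish, against 0.189 to 1.16 for LOC101063107. The result of the type I pair thus covers LOC101063107 only.

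Type IX collagen, a FACIT of cartilage and of the eye's vitreous, varied widely between fish of the same date, and none of its 4 tested genes passed the test among dates. LOC101077226 (col9a1) ran from 0.88 to 7.83 FPKM with a median of 1.445, col9a2 from 2.52 to 15.76 with a median of 4.68, and col9a3 from 1.51 to 6.06 with a median of 2.495. All 3 were highest in Full moon July fish 3. That fish also had the highest value of rho, the rod photopigment, at 238.4 FPKM, where the median fish had 0.105 FPKM. In all, 9 fish from 7 dates had more than 1 FPKM of rho. At each of those 7 dates the fish with the most rho also had the most LOC101077226 and the most col9a3, and at 6 and 5 of them the most col9a2 and LOC101063822 (col2a1). For the other genes of these types that fish was the highest at 2 of the 7 dates for LOC101075002 (col9a1) and at 3 each for LOC101072101 (col9a1), LOC115251788 (col9a1) and LOC101071943 (col2a1).

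New moon May shows this by fish. Its fish had 69.38, 0.12 and 0.03 FPKM of rho and 4.76, 1.55 and 2.34 FPKM of LOC101077226 (col9a1). Other genes of photoreceptors and the pineal gland moved with rho: sag (LOC101068328) reached 105.0 FPKM, tph1 114.9 and asmt, the last enzyme of melatonin synthesis, 24.3 FPKM, all in Full moon July fish 3. Of the cartilage and bone markers, sox9, which other tissues also use, averaged 10.31 FPKM in LOC101064892 and 4.09 FPKM in LOC101070798. The highest values of epyc, cnmd, ucma and runx2 were 1.85, 1.55, 1.43 and 0.75 FPKM, and those of acan and sp7 were 0.3 and 0.12 FPKM. For matn1 the highest value was 2.21 FPKM, in New moon June fish 3, which had 64.86 FPKM of rho. Other fish with rho did not share this. Full moon July fish 3 had 0.3 FPKM of matn1, and Waxing moon May fish 3, with 81.36 FPKM of rho, had the lowest value, 0.13 FPKM. Photoreceptor genes were chosen for this description after their values had been seen, no test was made, and the part of retinal or pineal tissue in the type IX values was not tested.

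**Figure D5:**
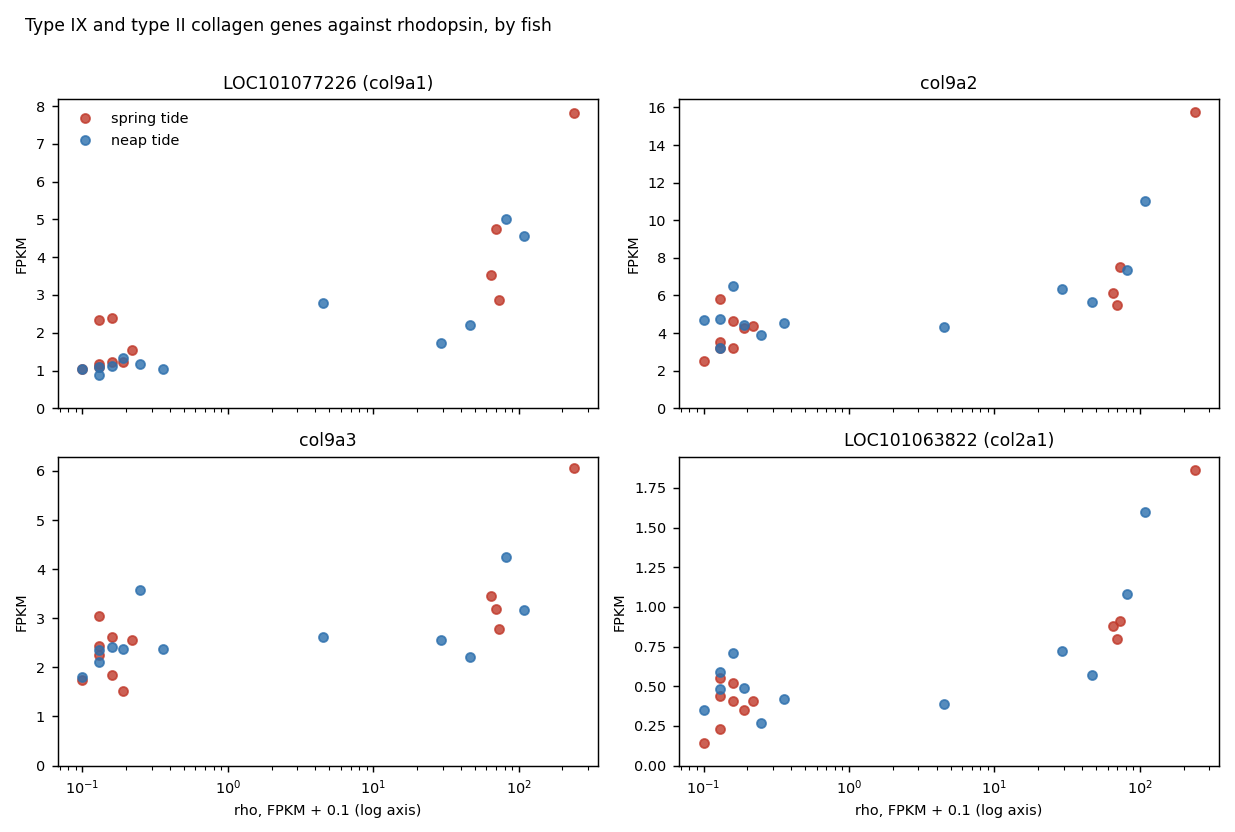
FPKM of LOC101077226 (col9a1), col9a2, col9a3 and LOC101063822 (col2a1) (vertical axes) against FPKM + 0.1 of rho (horizontal log axes); each point is 1 of 24 fish, coloured by tide. The point at the far right is Full moon July fish 3, the highest in all 4 panels.

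Genes that make, bind and break down collagen were described beside the collagens themselves. The counts of passing genes in this and the next paragraph stand beside 5.63% of all tested genes. Of all tested genes, 1.32% were higher and 4.31% lower at spring tides. Of 31 tested genes of collagen synthesis and processing, none fell at spring tides. The 2 that rose were close to the 5.63% for both directions, but above the 1.32% for rises alone. They were p3h3, a prolyl 3-hydroxylase family member, with date means of 5.33 ± 0.71 FPKM at spring and 3.34 ± 0.79 FPKM at neap dates (log2 difference 0.56, limma adjusted p = 0.0211), and p4hb, the shared subunit of prolyl 4-hydroxylase, with 92.2 ± 20.9 FPKM at spring and 68.4 ± 4.13 FPKM at neap dates (0.40, limma adjusted p = 0.0363). The median over the list was 0.04. Of 9 collagen receptor genes, the integrin subunits itga1 (0.41, limma adjusted p = 0.00757) and itga2 (0.49, limma adjusted p = 0.0403) rose, and the list's median was 0.07.

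Of 30 genes of connective tissue matrix, only the proteoglycan versican (vcan, LOC101063517) passed, lower at spring tides by 0.55 on the log2 scale (limma adjusted p = 0.018), and the list's median was 0.07. None of 16 laminin, nidogen and other basement membrane partners and none of 20 genes of collagen breakdown passed, with medians of 0.03 and -0.01. Of 18 genes of TGF-beta signalling and fibroblast regulation, ltbp3 rose by 0.29 and smad4 (LOC101072080), tgfb2 (LOC115250449) and smad2 (LOC101072871) differed by -0.30, -0.42 and -0.26 (limma adjusted p = 0.0302 to 0.0468), with a list median of -0.09. None of the 9 genes named from these sets passed with the pituitary score in the model (lowest limma adjusted p = 0.0729), with date means as samples (0.21) or without the libraries with rhodopsin (0.189). Of all tested genes 21, 1 and 2 passed for the tide in these fits, in the same order, against 961 in the main fit. With so few calls of any kind, the lack of calls cannot be read as particular to the 9 genes. Among 17 fibroblast genes, osr1 (-1.58), foxc1 (LOC101072421, -0.76) and foxd1 (-0.59) fell (limma adjusted p = 0.00807 to 0.0234), although foxd1 is also a gene of hypothalamic neurons. The foxc1 gene LOC101077061 did not pass and overlapped, at 4.56 to 5.52 FPKM on spring dates and 4.63 to 6.95 FPKM on neap dates. Over the fibroblast list 7 differences were positive and 10 negative. The summed fibroblast markers overlapped, at 213.7 to 275.3 FPKM on spring dates and 211.5 to 281.0 FPKM on neap dates. Among 13 pericyte and smooth muscle genes pdgfrb fell by 0.43 and rgs5 (LOC101075850) by 0.42 (limma adjusted p = 0.0175 and 0.0275). A second pdgfrb gene, LOC101061130, had a higher mean (16.7 against 12.1 FPKM) and did not pass. Its date means overlapped, at 15.24 to 21.03 FPKM for spring and 12.58 to 21.12 FPKM for neap. A more abundant rgs5 gene, LOC101079544, had date means of 87.5 FPKM at spring and 73.2 FPKM at neap, a log2 difference of 0.27 (limma adjusted p = 0.103). Over that list 7 differences were positive and 6 negative, with a median of 0.01, and the medians were -0.04 for the fibroblast and -0.16 for the endothelial genes. The summed pericyte and smooth muscle genes were at 393.6 to 565.7 FPKM on spring dates and 397.3 to 484.7 FPKM on neap dates. With the pituitary score in the model 2 of the 9 marker genes that had passed for the tide still passed, foxc1 (LOC101072421) and cldn5. Of all tested genes 21 passed in that fit, against 961 without the score. Date means of the score did not overlap between the tides, at 10.22 to 11.21 for spring and 8.589 to 9.604 for neap. The lowest neap mean was that of Waxing moon May, whose fish scored 10.7, 4.616 and 10.45. Without the fish at 4.616 that date would lie within the spring range. With all fish kept, as here, a fit with the score cannot separate it well from the tide. With date means as samples none of the 9 passed (lowest limma adjusted p = 0.0677), and without the libraries with rhodopsin cldn5 alone did. Of all tested genes 1 and 2 passed in these fits, so the loss of calls cannot be read as particular to the marker genes.

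The 19 collagen genes below 1 FPKM were tested once with the limit lowered to 0.5 FPKM. None passed for the tide, where 5.62% of all genes in that fit did. The smallest limma adjusted p was 0.112, for LOC101069747 (col18a1) with date means of 0.821 ± 0.093 FPKM at spring and 1.11 ± 0.055 FPKM at neap dates. Among dates, LOC101066527 (col11a1, range 0.78, limma adjusted p = 0.012) and LOC105419729 (col21a1, range 0.72, limma adjusted p = 0.0239) passed. These were 2 of the 19 genes, beside 38.4% of all 18560 genes in the same fit. LOC101066527 was highest at Waxing moon June and LOC105419729 at New moon June.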

How the data were processed

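RNA abundance was measured in 24 brain libraries. The values are the authors' deposited FPKM per gene. Per the submitters' processing notes HISAT2 2.0.4 and RSEM 1.2.12 were used. No source used here gives the genome build, which is thus not given. Depth is unknown, so no counting interval is given. Libraries were grouped by moon phase and month from the labels, tide by moon phase, and lunar cycle by date order; every library was kept.

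Tests ran on log2(FPKM + 1), a scale on which changes of low genes come out too small; 17058 genes with a mean of at least 1 FPKM entered. They used R 4.3.3 with limma 3.58.1 and statmod 1.5.0, an intensity trend and Benjamini-Hochberg adjustment at 0.05. Moon phases were groups and the sampling date a random block (within-date correlation 0.264 for tide and phase, 0.276 for the trend, 0.290 for lunar cycles); the test among dates had no block. Tide varied only between the 8 dates, whereas the tide fit used the 24 libraries with that block. Dates were the samples only in the alternative fit on date means. A single within-date correlation for all genes can give too many calls where the date spread differs between genes, as it did in one of the simulated data sets on which the tests were checked. Chain pairs used SciPy 1.17.1.

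Alternatives were a pseudocount of 0.1, other limits on the mean, TPM, median-ratio and quantile scaling, a pituitary covariate, a replicate block, date means as samples, leaving out each library or date and, added after the data had been seen, leaving out libraries with rhodopsin above 1 FPKM. The collagen genes, gene lists and tests were chosen with earlier results of these data known. Fish values are given for the 10 highest genes, any gene passing for the tide, and the smallest p-values of each other comparison; lists name at most 4 genes. LOC genes were matched to lists by product name, partly after the table was seen. Sequences and coordinates were not used here.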

Additional observations from a re-analysis of the deposited data

How the results depend on the processing

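For the tide, 0 collagen genes passed in the reported fit and also with the pituitary score as covariate, with the replicate block, with date means as samples and without libraries with rhodopsin. With a pseudocount of 0.1, a limit of 0.5 FPKM, median-ratio scaling or quantile normalization 1 passed, and with no limit or with TPM scaling 2 passed. Leaving out a library or date gave 0 to 6, and the 6 came without Waxing moon May. Over all genes the tide calls numbered 961 as reported, 1 with date means as samples, 21 with the pituitary covariate and 2 without rhodopsin libraries, and 3 to 4133 when a date was left out. Of these calls 225 of 961 were higher at spring, against 116 of 2974 with TPM, 354 of 675 with median-ratio scaling and 269 of 705 with quantile normalization.

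Among dates, 15 collagens passed, 14 to 17 in other settings, 11 to 16 when a library or date was left out, and 1 without rhodopsin libraries, where fewer libraries were tested. No collagen passed for new against full moon, waxing against waning moon, the trend or the lunar cycles in any setting run. The numbers of the fish pair nothing across dates: deviations of same-numbered fish had a median correlation of 0.0165 (84 pairs) and others -0.0082. With the replicate block 0 collagens passed for the tide and 17 among dates, and 854 of all genes passed for the tide.

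Directions that reversed belonged to genes that had not passed for the tide. LOC101062524 was -0.0899 with TPM scaling and -0.0064 without rhodopsin libraries. LOC105417179 was 0.0475 with median-ratio scaling and 0.0232 with the pituitary covariate. LOC101078829 was 0.0349 with median-ratio scaling and 0.0321 with quantile normalization. When a library or date was left out, the log2 tide difference spanned -0.1766 to 0.1693 for LOC105417179, -0.5597 to 0.0606 for LOC101075270, -0.0656 to 0.3701 for col1a2, -0.0874 to 0.148 for LOC101062524, -0.3166 to 0.1548 for col9a2, -0.1844 to 0.0541 for col6a1, -0.0266 to 0.2626 for col5a2 and -0.0842 to 0.0723 for LOC101078829. The cause of these changes was not tested.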
